A study of Saccharomyces cerevisiae with 4 samples.

Results

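The nab3-11 strain of budding yeast was compared between 37 °C and 25 °C, on 1 array at each temperature, through every non-control probe set with exactly 1 annotated gene. These were 6504 of 9335 probe sets and stood for 5656 genes, the brightest probe set being used for each gene. The strain, given in the labels as 1099 nab3-11, carries a temperature-sensitive allele of NAB3. Its culture in YPD, a rich glucose medium, was kept for 2 hours at 25 °C, where the allele is permissive, or for 2 hours at 37 °C. A wild type strain, 1415, treated alike on 1 array at each temperature, gives the shift that temperature brings in cells without the allele. The titles and strain entries of the wild type arrays name wild type, whereas their descriptions name nab3-11 at 25 °C. The titles were followed, and the labels of both nab3-11 arrays contradict each other nowhere. All 4 arrays share the medium, the extraction with hot acid phenol and the amplification from an oligo(dT) primer, which favours RNA with a poly(A) tail. With 1 array a group there is no replicate, so every difference below is between single arrays, has no error and no test, and its precision is limited by the number of arrays. The number of cultures behind each RNA is not stated in the labels.

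Nab3 is an RNA-binding protein that, with Nrd1 and the helicase Sen1, ends the transcription of snoRNAs, snRNAs and many short unstable RNAs and hands them to the nuclear exosome for trimming or decay. The shift of yeast to a high temperature is itself a strong stimulus. The heat shock factor Hsf1 drives chaperone genes, Msn2 and Msn4 drive general stress genes, and transcripts for ribosomes and their assembly usually decline for a time. Comparing the mutant between its permissive and its restrictive temperature therefore reads the response to heat and the loss of Nab3 together, and the design separates them only through the wild type arrays.

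Signals are in the array units of the deposited intensities, scaled to the same trimmed mean of 150 on each array. Where a pair of signals is given without temperatures, the first is at 25 °C and the second at 37 °C. Signals under a floor of 21.8 were raised to it, and a fold taken against such a signal is a lower bound, written "at least". A gene counts as measured when the brighter of its signals is above the floor, and as higher or lower when the signals differ at least 2-fold. In nab3-11, 4630 of 5656 genes were measured, 3987 of them with both signals above the floor. At 37 °C, 727 genes were higher (15.7% of those measured) and 188 were lower (4.06%). Differences of at least 4-fold were reached by 158 higher and 17 lower genes, and of at least 8-fold by 28 and 3. Of the 915 called genes 79.5% were higher, a share that was 50.6% when the arrays were scaled to a common median, with 444 higher and 434 lower genes, and 52.1% with quantile normalization, with 438 and 402. The median difference of all measured genes was 0.21 on the log2 scale and moved to -0.08 under either of those scalings, so list medians are read against 0.21. The quartiles of the differences were -0.25 and 0.71, an interquartile range of 0.96 on the log2 scale, and that of the difference between the strains at 25 °C was 0.45. In wild type, 514 of 4650 measured genes were higher (11.1%) and 67 lower (1.44%), and the median was 0.29. Because each array is scaled to the same total, a drop in the share of a transcript and a drop in its amount per cell cannot be told apart, nor can fewer cells of a kind and less RNA per cell.

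**Figure D1:**
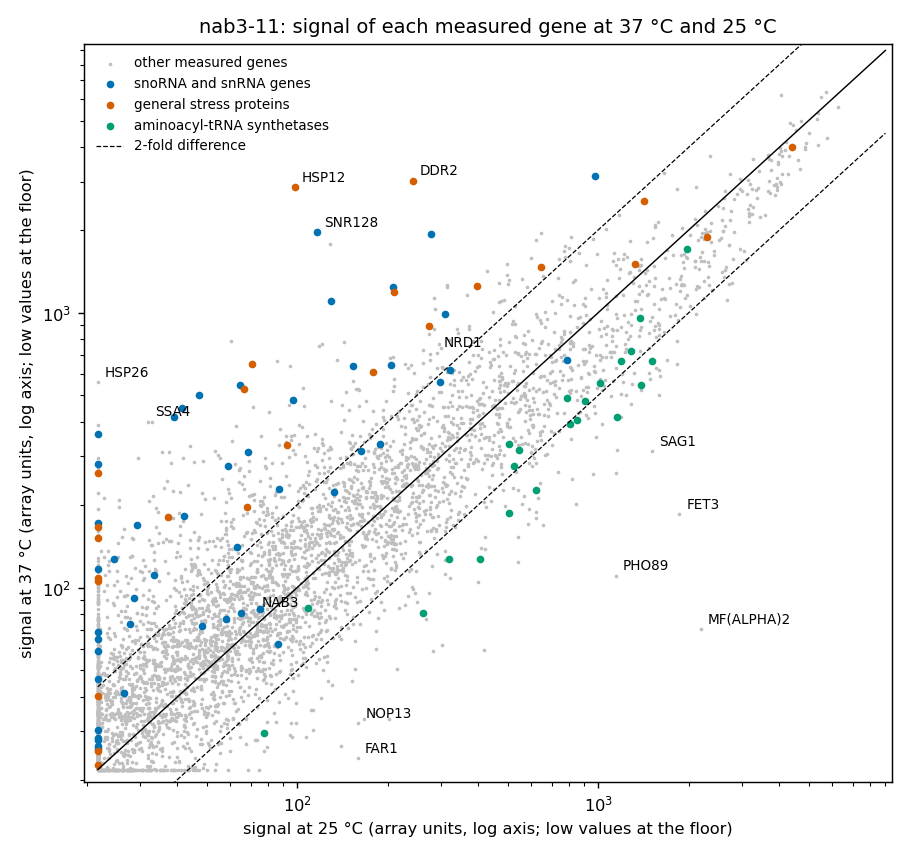
Signal of each measured gene in nab3-11 at 37 °C (vertical, array units, log axis) against 25 °C (horizontal, log axis), 1 array each, with signals below the floor of 21.8 drawn at it and dashed lines at a 2-fold difference. snoRNA and snRNA genes and general stress genes lie mostly on or above the diagonal with many past the upper dashed line, and all 22 aminoacyl-tRNA synthetase genes lie below the diagonal.

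Some measures of the arrays themselves differed between the nab3-11 arrays. The share of probe sets above the floor was 64.4% at 37 °C and 56.5% at 25 °C in nab3-11, and 62.7% and 56.5% in wild type. The 3′ over 5′ signal ratio of the ACT1 control was 1.79 at 37 °C and 1.49 at 25 °C in nab3-11, and 1.56 and 1.66 in wild type, and that of the SPT15 control 3.38 and 2.82, and 4.44 and 6.08. All 9 hybridisation controls, bacterial and phage RNAs added in fixed amounts, were lower on the nab3-11 37 °C array, with a median of -0.45 on the log2 scale. Their geometric mean was 171 at 37 °C and 240.4 at 25 °C in nab3-11, and 205 and 208 in wild type. Their part in the results was not tested beyond a scaling to these controls, which moved the median of all genes to 0.63. The 4 defining markers of the α mating type were above the floor on all 4 arrays, with summed signals from 1543 to 7640, and of the 6 a-type markers between 0 and 2 were, with summed signals from 39.8 to 103.

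Among the termination factors, the transcript of the mutated gene differed little. NAB3 had signals of 72.1 at 25 °C and 81.03 at 37 °C, and in wild type of 66.2 and 66.7. Since nab3-11 is no deletion, this does not check the labels. NRD1, the RNA-binding partner of Nab3 whose own transcript is cut short by the complex, had 291 at 25 °C and 716 at 37 °C and was 2.46-fold higher, against 125 and 88.8 in wild type. NRD1 was the only called gene of 9 measured genes of the Nrd1, Nab3, Sen1 and TRAMP list. Scaling to a common median left 0 of 10 measured genes of that list higher and 1 lower, so NRD1 was not called there. Quantile normalization gave 1 higher and 1 lower of 8. SEN1, the helicase, had 103 at 25 °C and 155 at 37 °C (a probe set that can bind other sequences), and MTR4, the helicase that feeds the nuclear exosome, 58.5 at 25 °C and 31.8 at 37 °C. In the exosome list RRP6, the nuclear 3′ to 5′ exonuclease, was 2.60-fold lower, with 72.6 at 25 °C and 27.98 at 37 °C, against 62.9 and 57.4 in wild type. The other 12 exosome genes stayed within 2-fold, among them the catalytic subunit gene DIS3 with 83.9 at 25 °C and 57.95 at 37 °C.

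Of 9 genes taken to be controlled by early termination, 3 were higher and 0 lower. Besides NRD1 these were URA8, a CTP synthase gene, 2.14-fold higher (582 at 25 °C and 1245 at 37 °C), and GSC2, an alternate glucan synthase subunit gene, 2.42-fold higher (372 at 25 °C and 898 at 37 °C). In wild type URA8 had 160.4 and 261 and GSC2 91.99 and 707, and the probe sets of GSC2 disagree by 1.27 on the log2 scale in nab3-11. IMD2, an IMP dehydrogenase gene, had 1372 at 25 °C and 1173 at 37 °C, and 1232 and 571 in wild type, from a probe set that can bind its relatives. The list had a median of 0.12, a sign that turned with scaling to a common median. That scaling left 0 of 9 genes higher and 0 lower, and quantile normalization left 3 higher.

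Many of the RNAs whose 3′ ends Nab3 helps to form were higher at 37 °C in nab3-11. Box C/D snoRNAs guide the methylation of ribosomal RNA or its cleavage, and box H/ACA snoRNAs its pseudouridylation. Of 31 measured box C/D genes 20 were higher and 0 lower, and the median log2 difference was 1.67. The H/ACA genes were higher for 9 of 14, again with 0 lower, and their median was 1.42. In wild type the counts were 6 of 25 and 0 of 8, with medians of 0.76 and -0.05; fewer were measured there. Signals of SNR128 were 116 at 25 °C and 1965 at 37 °C, and 107 and 99.8 in wild type. SNR71 had 208 at 25 °C and 1239 at 37 °C, against 78.4 and 141 in wild type. For these box C/D genes the nab3-11 37 °C array stands above the other 3. Among H/ACA genes, SNR5 had 129.96 at 25 °C and 1099 at 37 °C and was 8.46-fold higher, where wild type had 107 and 200.01. SNR36 had 24.7 at 25 °C and 127 at 37 °C, against 18.7 and 25.2 in wild type. SNR73, a box C/D gene, was higher in both strains, with 47.2 at 25 °C and 503 at 37 °C in nab3-11, against 30.9 and 207 in wild type.

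Of 4 spliceosomal snRNA genes 3 were measured. SNR14, the U4 RNA, was at least 7.87-fold higher, and SNR7-L, the long form of U5, at least 12.96-fold higher; the U5 probe set can bind more than 1 sequence. SNR6, the U6 RNA, which RNA polymerase III makes, had 26.7 at 25 °C and 41.3 at 37 °C. RPR1, the RNA of RNase P and also a polymerase III product, was 4.61-fold higher with 40.4 at 25 °C and 186 at 37 °C, and in wild type it had 42.5 and 144. Transfer RNA genes were higher for 19 of 71 measured and lower for 0, with a median of 0.63. In wild type 1 of 63 was higher and 5 were lower, with a median of -0.31. On the same arrays a 25S rRNA control read 125 at 25 °C and 646 at 37 °C in nab3-11, and 102 and 100.3 in wild type; 3 of 10 rRNA controls were above the floor in nab3-11. Priming of RNAs without a poly(A) tail was not measured here, and its part in these values was not tested.

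Of 18 protein-coding genes that directly follow a measured snoRNA or snRNA gene on the same strand, 5 were higher and 3 lower. Pairs were taken from gene order in the R64 annotation alone, so snoRNA genes inside introns of other genes were not set apart. A gene that holds a snoRNA gene in an intron can therefore be counted as following it. Of all 4502 measured protein-coding genes 675 were higher and 188 lower. The 5 higher genes behind a snoRNA or snRNA gene are named because they are few, after their values were seen. RGT1, a repressor of hexose transporter genes, had 94.7 at 25 °C and 640.4 at 37 °C, against 46.1 and 151 in wild type. FLX1, a mitochondrial carrier gene, had 62.4 at 25 °C and 387 at 37 °C, against 30.2 and 58.8 in wild type. HEM4, which acts in heme synthesis, had 26.2 at 25 °C and 153 at 37 °C, against 36.3 and 58.7 in wild type. All 3 were higher than 2-fold in nab3-11, and of them only RGT1 also passed 2-fold in wild type. YDR042C had 105 at 25 °C and 531 at 37 °C in nab3-11 and was below the floor on both wild type arrays. TRS31, a gene of a vesicle tethering complex, was 2.90-fold higher, with 61.4 at 25 °C and 178 at 37 °C, against 57.03 and 113 in wild type. Behind the 8 snoRNA or snRNA genes that were themselves higher, 2 of the downstream genes were higher and 1 was lower. The 3 lower genes were VMA5, ASN1 and RPL7A.

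Chaperone genes split by family. Small heat shock proteins and the disaggregase hold and dissolve aggregates. Their list, which also takes in HSP30 and HSP31, was higher for 4 of 5, and its median was 1.37. HSP26, a small heat shock protein, had 17.1 at 25 °C and 559 at 37 °C and was at least 25.7-fold higher; wild type had 12.9 and 307. HSP104, the disaggregase, had 162 at 25 °C and 356 at 37 °C, against 116 and 296 in wild type. HSP30, a plasma membrane heat shock protein gene, had 275 at 25 °C and 838 at 37 °C, and HSP42 stayed near its 25 °C level with 182 at 25 °C and 206 at 37 °C. The Hsp90 list, which folds kinases and receptors, was higher for 5 of 12, and its median was 0.82. HSP82, the inducible Hsp90 itself, had 647 at 25 °C and 1956 at 37 °C, from a probe set that can bind related genes. Its co-chaperone genes TAH1, HCH1, CPR6 and AHA1 were 3.08-fold, 2.48-fold, 2.39-fold and 2.19-fold higher. In wild type 6 of 13 were higher, with a median of 0.80. Scaling to a common median left 2 of 12 Hsp90 list genes higher in nab3-11.

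The Hsp70 list had 2 higher and 1 lower gene of 10 measured. SSA4, a heat-inducible cytosolic Hsp70, had 31.97 at 25 °C and 401 at 37 °C, against 31.9 and 216 in wild type, and SSE2, an Hsp110 exchange factor, had 38.7 at 25 °C and 225 at 37 °C, against 39.6 and 157. SSA3, another inducible Hsp70 gene, had 13.9 at 25 °C and 39.9 at 37 °C and was not called. SSC1, the main mitochondrial Hsp70, was the 1 lower gene, with 424 at 25 °C and 197 at 37 °C, while in wild type it had 329 and 341. SSZ1, a ribosome-bound Hsp70, had 643 at 25 °C and 358 at 37 °C. Its partner ZUO1, the ribosome-bound J protein, was 2.23-fold lower with 1107 at 25 °C and 497 at 37 °C. The Hsp40 and cofactor list had 1 higher gene, SIL1 of the endoplasmic reticulum, 2.84-fold higher, and 2 lower, ZUO1 and SNL1. Of the ring chaperonin and its helper prefoldin, which fold actin and tubulin, 14 of 15 genes stayed within 2-fold, with a median of -0.19 that turned positive with scaling to the hybridisation controls. CCT7 was the exception and was 3.04-fold lower with 120.3 at 25 °C and 39.6 at 37 °C. In mitochondria, ZIM17, which keeps the organelle's Hsp70 soluble, was 4.87-fold higher, and the chaperonin gene HSP10 and the disaggregase gene HSP78 were 2.11-fold and 2.26-fold higher. Of 16 endoplasmic reticulum folding genes only SIL1 passed the threshold. HAC1, the transcription factor of the unfolded protein response, had 1174 at 25 °C and 2269 at 37 °C, and its probe sets disagree by 1.30 on the log2 scale.

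Targets of Msn2 and Msn4 and hydrophilins, taken as general stress proteins, counted 17 higher and 0 lower genes of 24, and the median was 1.81. HSP12, a small membrane-protecting protein, had 98.2 at 25 °C and 2859 at 37 °C and was 29.1-fold higher; in wild type it had 43.3 and 2747. DDR2, a multistress protein gene, had 242 at 25 °C and 3022 at 37 °C, against 194 and 1007 in wild type. GRE1, a hydrophilin gene, had 7.29 at 25 °C and 262 at 37 °C, against 5.79 and 13.6 in wild type, where both signals were below the floor. TFS1, which encodes an inhibitor of carboxypeptidase Y, was 9.20-fold higher, the stress gene MOH1 at least 7.63-fold higher and the membrane protein gene YRO2 7.90-fold higher. Wild type had 16 of 21 members higher and a median of 1.66. The count in nab3-11 was 16 of 23 with scaling to a common median.

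Storage carbohydrate genes were higher on both the synthetic and the degrading side. Glycogen genes were higher for 7 of 11 with 0 lower and a median of 1.89. Relative to all genes that median was 1.68, and 0.95 with the floor at the 25th percentile. They included GSY2, the main glycogen synthase, 4.25-fold higher, and GLC3, the branching enzyme, 4.08-fold higher. On the degrading side GPH1, glycogen phosphorylase, had 25.7 at 25 °C and 208 at 37 °C, against 18.2 and 324 in wild type, and GDB1, the debranching enzyme, was 3.71-fold higher. GAC1, which targets protein phosphatase 1 to glycogen, was at least 6.93-fold higher. SGA1, a glucoamylase known from sporulating cells, was 5.89-fold higher. Trehalose genes were higher for 5 of 9, and for 3 with quantile normalization. TSL1, a large subunit of the trehalose synthase complex, had 93.7 at 25 °C and 460.1 at 37 °C, against 49.7 and 259.8 in wild type, and NTH1, NTH2 and ATH1, which encode trehalases, were 3.18-fold, 2.68-fold and 4.37-fold higher. TPS2, the phosphatase that completes trehalose synthesis, had 189 at 25 °C and 303 at 37 °C. Wild type had 7 of 12 glycogen genes higher, with a median of 1.06, and 5 of 9 trehalose genes.

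**Figure D2:**
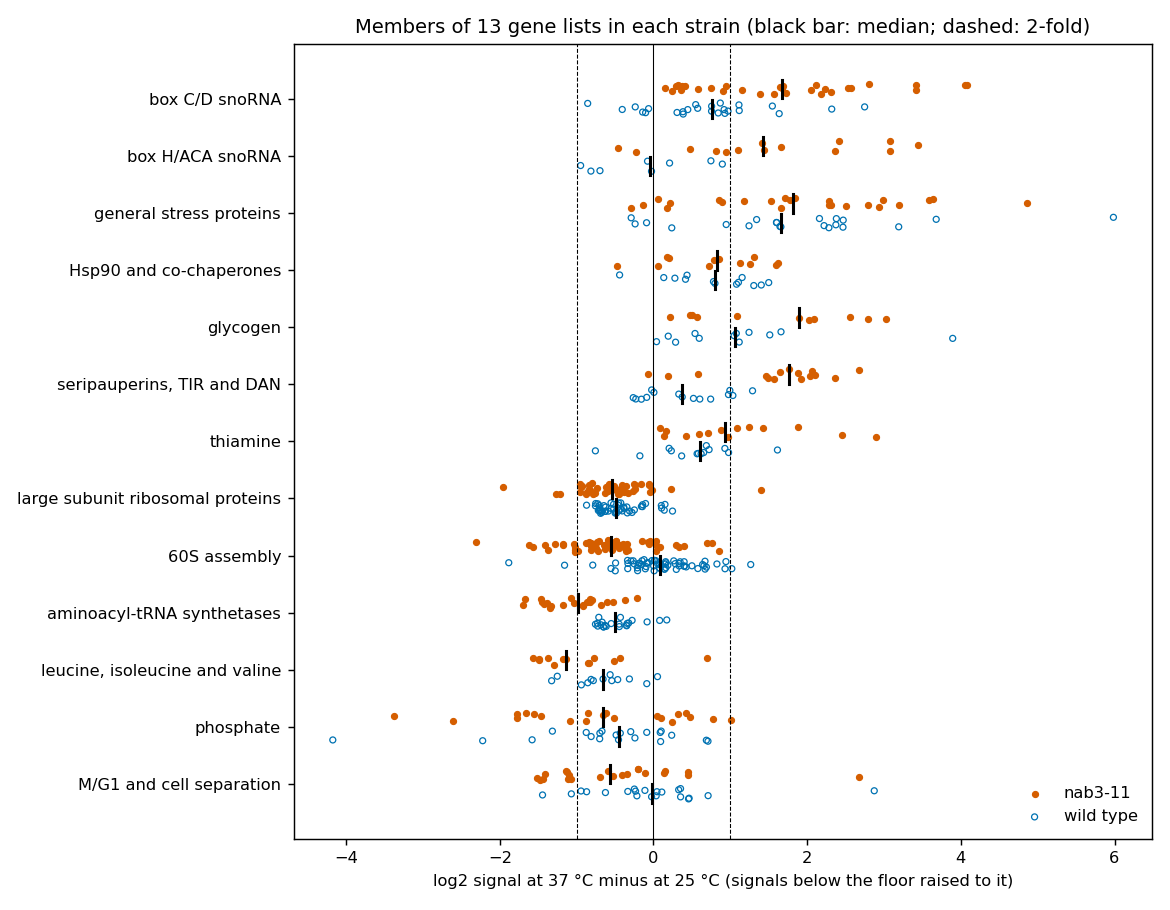
Log2 difference between 37 °C and 25 °C of each measured member of 13 gene lists in nab3-11 (filled) and wild type (open), 1 array a group, with black bars at list medians and dashed lines at 2-fold. The medians of box H/ACA snoRNA genes (1.42 and -0.05) and of the seripauperin list (1.77 and 0.37) are far apart in the strains, whereas those of general stress proteins (1.81 and 1.66) lie close.

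Genes that remove peroxides or repair oxidised proteins were higher for 10 of 33 and lower for 1. SRX1, sulfiredoxin, which reactivates peroxiredoxin, was at least 12.8-fold higher, with 11.7 at 25 °C and 278 at 37 °C, against 4.69 and 93.7 in wild type. Mitochondrial enzymes were among the others: the peroxiredoxin gene PRX1 was at least 6.97-fold higher, the thioredoxin reductase gene TRR2 4.54-fold higher and the methionine sulfoxide reductase gene MXR2 3.90-fold higher. GSH1, which starts glutathione synthesis, was the lower gene and is named for that reason. In the glycerol and osmotic stress list 5 of 16 were higher, led by GCY1, a glycerol dehydrogenase, 6.29-fold higher, and including GPP2, a glycerol phosphatase, and PBS2, the kinase upstream of Hog1, at 3.18-fold and 2.76-fold higher. Of 14 aldo-keto and aryl-alcohol reductase genes 5 were higher, among them GRE3, an aldose reductase gene, 3.59-fold higher. Transcription factor genes of stress and growth divided, with 2 of 21 higher and 3 lower. ADR1, an activator of genes repressed by glucose, was 3.18-fold higher and XBP1, a stress-induced repressor, at least 4.87-fold higher. HAP4, an activator of respiratory genes, was 2.94-fold lower, with 130.1 at 25 °C and 44.3 at 37 °C, against 103 and 54.7 in wild type. HMS2, whose protein resembles heat shock factors, was 5.14-fold lower, and SOK2, a regulator of filamentous growth, 2.21-fold lower. HSF1 itself had 38.8 at 25 °C and 76.7 at 37 °C.

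The lists of carbon metabolism had 23 of 138 measured genes higher, a share near that of all genes, and 3 lower. Glycolysis and fermentation genes counted 5 higher and 0 lower of 26, and their median of -0.10 turned positive with quantile normalization and with scaling to the hybridisation controls. ADH2, the alcohol dehydrogenase that consumes ethanol, had 85.6 at 25 °C and 666 at 37 °C, against 51.8 and 219 in wild type. HXK1, a hexokinase repressed by glucose, was 3.34-fold higher, and PDC5, a pyruvate decarboxylase, 2.50-fold higher with 189 and 213 in wild type. Among hexose transporters HXT5, made by slowly growing cells, had 22.9 at 25 °C and 212 at 37 °C, against 25.97 and 43.96 in wild type. HXT6 and HXT7, a near-identical pair of high-affinity transporters whose probe sets cannot fully separate them, were 2.96-fold and 2.65-fold higher. HXT1, the low-affinity transporter of high glucose, was 2.10-fold lower with 967 at 25 °C and 459.6 at 37 °C, and HXT2, a high-affinity transporter, had 1599 at 25 °C and 831 at 37 °C. In all 4 of 11 transporter and sensor genes were higher and 1 lower. In the pentose phosphate pathway the minor isoenzyme genes SOL4 and GND2 were 10.04-fold and 5.37-fold higher, and TKL1, the main transketolase, had 2110.5 at 25 °C and 1218 at 37 °C. In the list of the TCA and glyoxylate cycles, PCK1, which starts gluconeogenesis, and ICL1, isocitrate lyase, were 4.10-fold and 2.62-fold higher, while CIT2, peroxisomal citrate synthase, was 3.54-fold lower and the NADP isocitrate dehydrogenase gene IDP1 2.78-fold lower. Respiratory chain genes were higher for 4 of 39 (10.3%, below the 15.7% of all genes) and lower for 0. The 4 were alternative or inhibitory forms, named CYC7 (at least 4.67-fold higher), COX5B (2.71-fold higher), STF1 (3.28-fold higher) and INH1 (2.02-fold higher). CYC7 and COX5B encode the hypoxic isoforms of cytochrome c and of a cytochrome oxidase subunit, and STF1 and INH1 inhibitors of the ATP synthase. In wild type the same 4 were higher, and 1 of 39 was lower. There CYC7 was at least 4.17-fold, COX5B at least 6.33-fold, STF1 4.54-fold and INH1 2.58-fold higher.

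Several protein turnover genes outside the proteasome were higher. None of 35 proteasome genes passed 2-fold in either direction in nab3-11, nor in wild type, with medians of -0.19 and 0.18; scaling to the hybridisation controls made the nab3-11 median positive. RPN1, a regulatory base subunit, had 256 at 25 °C and 132 at 37 °C, against 168 and 218 in wild type, and PRE9, a core subunit, 213 at 25 °C and 119 at 37 °C, against 199.6 and 236. Ubiquitin and Cdc48 pathway genes were higher for 8 of 33 and lower for 1, which was OTU1, a deubiquitinase gene. UBI4, the polyubiquitin gene, had 277 at 25 °C and 585 at 37 °C, against 169 and 562 in wild type, and the ubiquitin-conjugating enzyme gene UBC5 was 4.40-fold higher. Scaling to a common median left 2 of 33 higher. Autophagy genes were higher for 9 of 21 and lower for 0, with a median of 0.52, against 5 of 22 and 0.48 in wild type. ATG13, a regulator of the Atg1 kinase, had 35.9 at 25 °C and 146 at 37 °C, and ATG33 and ATG34, which act in the removal of mitochondria and in the transport of vacuolar enzymes, were 3.54-fold and 4.59-fold higher. In the vacuole the protease inhibitor gene PBI2 was 3.94-fold higher and AMS1, an α-mannosidase carried there by selective autophagy, 3.80-fold higher.

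The lists of ribosomes, their assembly, RNA polymerases I and III, translation factors and tRNA synthetases, mitochondrial ribosomal proteins included, accounted for 43 of the 188 lower genes. They held 351 measured genes, of which 6 were higher. The transcripts of ribosomal proteins were mostly below their 25 °C signal by less than 2-fold, with medians of -0.54 for the large and -0.51 for the small subunit and 3 of 47 and 2 of 34 lower. In wild type the medians were -0.49 and -0.51. Scaling to a common median raised the lower counts in nab3-11 to 17 and 11. RPL39 had 1833 at 25 °C and 789 at 37 °C and RPS15 2788 at 25 °C and 1280.04 at 37 °C, both lower. RPL9A, which shares probes with other sequences, was 3.89-fold lower, and RPL15B, the minor copy of its pair, was 2.63-fold higher. RPL7A was 2.40-fold lower by its brightest probe set, but its probe sets disagree and its unique probe set was higher at 37 °C, by 0.48 on the log2 scale.

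Assembly factors of the ribosome were among the lower genes in nab3-11. Of 63 genes of 60S assembly, 12 were lower and 0 higher, with a median of -0.55; in wild type 2 of 64 were lower and 2 higher, with a median of 0.08. With scaling to a common median 22 of 63 were lower in nab3-11, and with quantile normalization 31. NOP13, a nucleolar RNA-binding protein gene, had 159.5 at 25 °C and 32.1 at 37 °C, against 178 and 168 in wild type. NOP15 had 183 at 25 °C and 59.7 at 37 °C, against 154 and 207, and SDA1, needed for export of the large subunit, 95.2 at 25 °C and 32.1 at 37 °C, against 82.9 and 81.8. For these 3 genes the nab3-11 37 °C signal stands below the other 3 arrays. DBP2, an RNA helicase that also acts in transcription, was lower in both strains, with 640.1 at 25 °C and 240.001 at 37 °C in nab3-11, against 761 and 206 in wild type. The small subunit processome had 7 of 55 lower and 0 higher, with a median of -0.35, against 0 of 57 lower and 0.30 in wild type; scaling to the hybridisation controls turned the nab3-11 median positive, while a common median and quantile normalization gave 13 and 15 of 54 lower. NOP1 and NOP56, proteins of box C/D snoRNPs, were 2.17-fold and 2.77-fold lower, while 20 of 31 box C/D RNAs were higher. RRP5, which acts in the making of both subunits, had 309.6 at 25 °C and 126 at 37 °C, against 269 and 212 in wild type. The RNA polymerase I list was split, with 2 of its 16 measured genes passing 2-fold in each direction. RPA135, the second largest subunit of RNA polymerase I, and HMO1, which binds active rRNA genes, were 2.13-fold and 2.0004-fold lower. RRN10 and RRN7 were the higher genes, both below the floor at 25 °C in nab3-11. Their signals at 37 °C were 78.4 for RRN10 and 53.5 for RRN7. RNA polymerase III had 1 higher and 0 lower gene of 19.

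The aminoacyl-tRNA synthetases, which load tRNAs with amino acids, had 11 of 22 genes lower and 0 higher in nab3-11, with a median of -0.98. All 22 lay below 0 on the log2 scale. In wild type 0 of 22 passed 2-fold and the median was -0.50. The lower count in nab3-11 was 18 on a common median and 11 after quantile normalization. CDC60, the leucine enzyme, had 262 at 25 °C and 80.7 at 37 °C, against 229 and 156 in wild type. ILS1, the isoleucine enzyme, had 404 at 25 °C and 127 at 37 °C, against 307 and 241, and GUS1, the glutamate enzyme, 1152 at 25 °C and 416 at 37 °C, against 889 and 699. Of the tRNA genes themselves 19 of 71 were higher, as given above. Translation factors were lower for 5 of 33 and higher for 1, and with a common median and quantile normalization 15 of 33 and 10 of 32 were lower. TIF4631, the initiation factor eIF4G1, was 4.999-fold lower with 166 at 25 °C and 33.3 at 37 °C, TEF4, an elongation factor subunit gene, was 2.64-fold lower, and GCD11, a subunit of eIF2, 2.36-fold lower. ANB1, the hypoxic form of eIF5A, was the higher one, with 209.98 at 25 °C and 543 at 37 °C, against 141 and 171 in wild type. Mitochondrial ribosomal protein genes had 1 higher and 1 lower of 64.

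**Figure D3:**
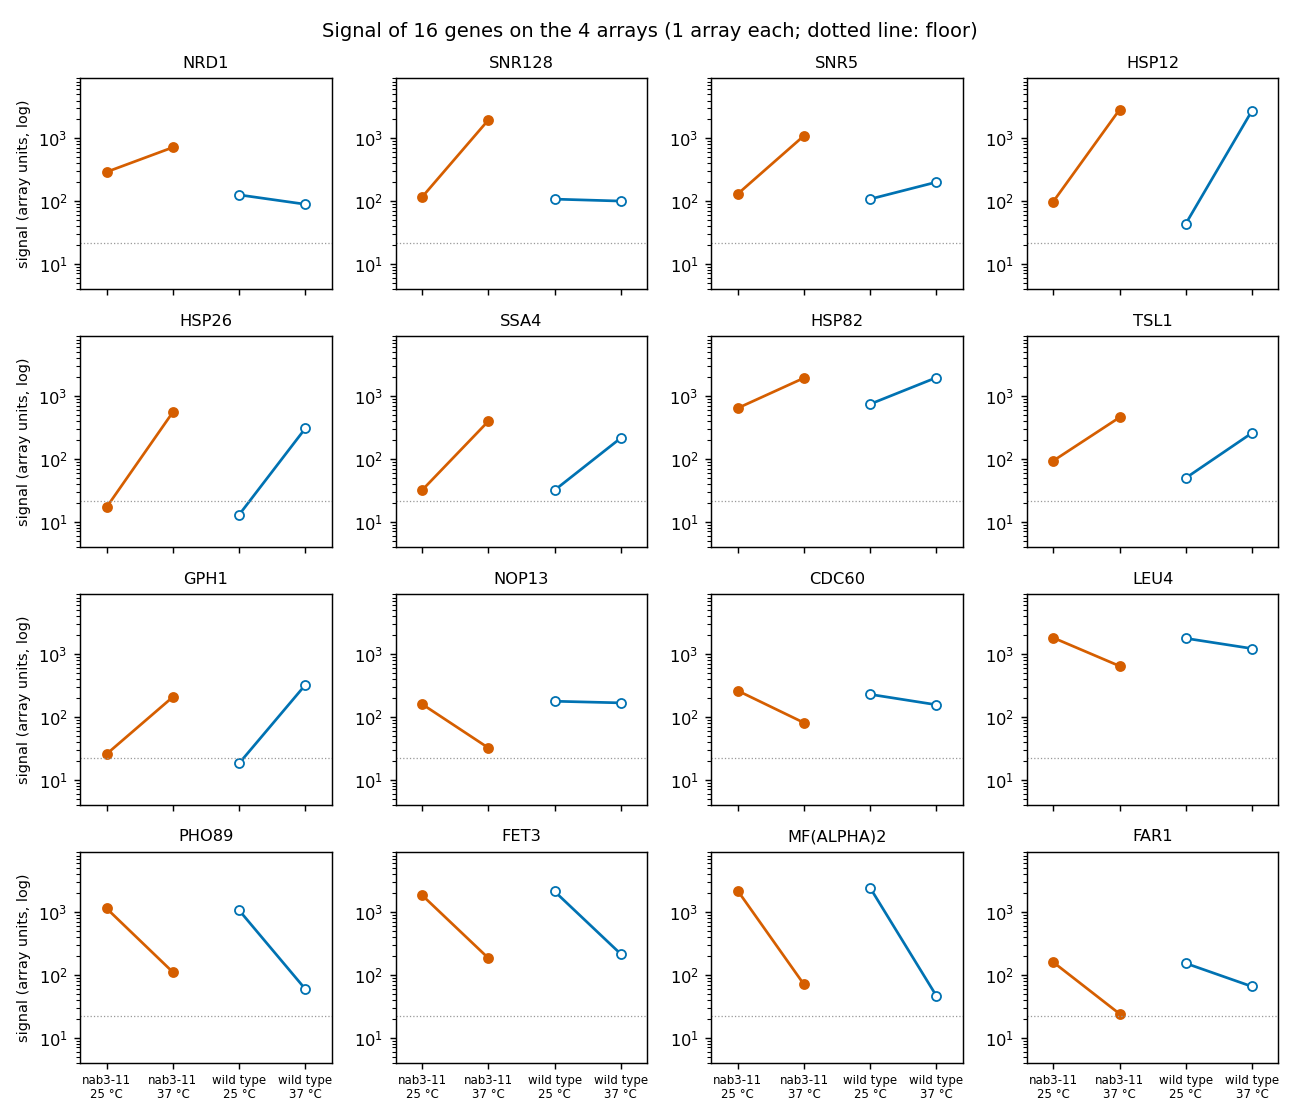
Signals (array units, log axis) of 16 genes on the 4 arrays, nab3-11 filled and wild type open, with the floor as a dotted line; each point is 1 array. NRD1, SNR128 and SNR5 are highest on the nab3-11 37 °C array, NOP13 and CDC60 lowest there, and PHO89, FET3 and MF(ALPHA)2 drop at 37 °C in both strains.

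Several lists of amino acid synthesis held more lower than higher genes. Of 13 genes for leucine, isoleucine and valine 7 were lower and 0 higher, with a median of -1.14, against 2 lower and -0.66 in wild type. LEU4, the first enzyme of leucine synthesis, had 1827 at 25 °C and 648 at 37 °C, against 1793 and 1231 in wild type. ILV2, which carries out the first shared step, had 631 at 25 °C and 212 at 37 °C, against 471 and 379, and BAT1, the mitochondrial transaminase, was 2.60-fold lower. In the lysine list 3 of 8 were lower, among them LYS20, the first enzyme, with 1687 at 25 °C and 673 at 37 °C, and LYS5, which activates the Lys2 enzyme, was 3.28-fold higher. ARG3 and ARG1 were the 2 lower of 7 arginine genes, 5.25-fold and 3.71-fold lower. The list of histidine, aromatic, serine and glutamate genes had 9 of 45 lower and 4 higher. HIS1, which starts histidine synthesis, was 4.41-fold lower, and GDH2, which breaks glutamate down, was 3.17-fold higher. The sulfate and methionine list held 4 higher and 4 lower genes of 30, with the synthases at the end of the path lower (MET6 4.19-fold lower and SAM1 3.45-fold lower) and the sulfate permease gene SUL2 3.72-fold higher. Permeases were lower for 4 of 24 and higher for 1. They included GAP1, the general permease, 2.35-fold lower, MEP2, the ammonium transporter and sensor, 2.47-fold lower, and PTR2, the peptide transporter, 3.31-fold lower. With scaling to a common median the lower genes were 14 of 45 in the histidine list, 8 of 29 in the sulfate list and 7 of 24 permeases. Wild type had 3 of 8 lysine genes lower, 2 of 8 arginine genes and 6 of 45 in the histidine list. For the sulfate list and the permeases it was 2 of 29 and 3 of 22. ARG3, ARG1, LYS20, HIS1, MET6, MEP2 and PTR2 were lower in both strains, while SAM1 and GAP1 stayed within 2-fold in wild type.

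Genes of phosphate and iron uptake were among the lowest at 37 °C. Of 21 phosphate genes 8 were lower and 1 was higher, with a median of -0.65. PHO89, a sodium-coupled phosphate transporter, had 1145 at 25 °C and 111 at 37 °C, against 1074 and 59.5 in wild type. PHO5, the secreted acid phosphatase, had 1588 at 25 °C and 501 at 37 °C, against 1692 and 1208. VTC2 and VTC3, which make polyphosphate, were 2.94-fold and 3.43-fold lower, and SPL2, which holds back low-affinity uptake, 6.08-fold lower. The iron and copper list had 6 of 30 lower and 1 higher, with a median of 0.01 whose sign turned with scaling to a common median and with quantile normalization. FET3, the oxidase of high-affinity iron uptake, had 1859 at 25 °C and 185 at 37 °C, against 2140.1 and 215 in wild type. FTR1, its permease partner, had 419.7 at 25 °C and 152 at 37 °C. SIT1, a siderophore transporter, had 416 at 25 °C and 59.2 at 37 °C, and CTR1, the copper transporter, 228 at 25 °C and 86.7 at 37 °C. CRS5, a metallothionein, was 4.60-fold higher. Of 11 zinc genes 2 were higher and 0 lower, a share near that of all genes. ZPS1, a cell surface protein gene induced by low zinc, had 118 at 25 °C and 754 at 37 °C, against 68.1 and 85.8 in wild type, and IZH4 was 5.26-fold higher. ZRT1, the high-affinity zinc transporter, had 930.4 at 25 °C and 599.9 at 37 °C.

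Thiamine genes, which serve vitamin B1 synthesis and uptake, were higher for 6 of 14 and lower for 0, with a median of 0.93; in wild type 1 of 14 was higher and the median was 0.60. THI20 had 43.95 at 25 °C and 328 at 37 °C, against 33.9 and 104 in wild type, and THI4, which makes the thiazole part, 10.6 at 25 °C and 119 at 37 °C, against 21.9 and 32.8. THI7, the thiamine transporter, was 2.13-fold higher. Scaling to a common median left 4 of 14 higher, and quantile normalization 3. Purine and one-carbon genes were lower for 4 of 23 (10 with a common median) and higher for 0, led by ADE13, adenylosuccinate lyase, 4.90-fold lower, and GCV2, a glycine decarboxylase subunit, 3.05-fold lower. In NAD metabolism PNC1, a nicotinamidase induced by stress, had 395 at 25 °C and 1249 at 37 °C, against 389.5 and 988 in wild type. BNA2, the first enzyme of de novo synthesis, was 4.54-fold higher, and at least 5.49-fold in wild type. PNC1 and BNA2 were the only higher genes among 17 measured in the NAD list. The list median lay at -0.40 in nab3-11, a sign that turned with scaling to the hybridisation controls, and at 0.37 in wild type. BNA3 was the 1 lower gene, with 125.7 at 25 °C and 56.4 at 37 °C, against 71.2 and 82.3 in wild type. INO1, which makes inositol phosphate, was 4.60-fold higher with 32.3 at 25 °C and 148 at 37 °C, against 4.69 and 21.9 in wild type. Of 28 ergosterol genes 1 was higher and 2 lower, the latter ERG26 and ERG4. The fatty acid synthase gene FAS1 had 1587 at 25 °C and 617 at 37 °C, and FAS2 had 2248 at 25 °C and 1132 at 37 °C, but the probe sets of each disagree, by 1.41 and 1.76 on the log2 scale.

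At the cell surface, genes of the seripauperin, TIR and DAN family, wall mannoproteins encoded largely near chromosome ends and known from anaerobic or cold cells, were higher for 12 of 15 and lower for 0, with a median of 1.77. In wild type 2 of 15 were higher and the median was 0.37. PAU23 had 71.1 at 25 °C and 455 at 37 °C, against 76.6 and 187 in wild type, and DAN4 64.03 at 25 °C and 267 at 37 °C, against 57.03 and 114. Probe sets of 10 of the 15 can bind several members, so the members are not independent; over the 5 genes with unique probe sets 2 were higher and the median was 0.58. PIR and mannoprotein genes were higher for 8 of 29 and lower for 2. PIR3, a cross-linked wall protein gene, had 121 at 25 °C and 772 at 37 °C, against 88.2 and 646 in wild type, SPI1 was 3.42-fold higher, and YPS6, a wall protease, 7.42-fold higher. FLO1, a flocculin gene with a probe set shared with relatives, was at least 4.02-fold higher and was below the floor on both wild type arrays. In the list of glucan and chitin synthesis and the Slt2 pathway, 7 of 42 were higher (3 with a common median) and 1 lower. The higher share is near that of all genes, and in wild type 7 of 43 were higher and 0 lower. PST1 had 469.8 at 25 °C and 1279.6 at 37 °C, against 363 and 1753 in wild type. RLM1, the transcription factor below Slt2, was 2.25-fold higher, and ROM1, an activator of Rho1, at least 4.32-fold higher. In wild type these were 1.96-fold and 3.25-fold higher. CHS5, needed to carry chitin synthase to the surface, was the lower gene, with 183 at 25 °C and 69.5 at 37 °C, against 138 and 149 in wild type.

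Genes of the end of mitosis and of cell separation were lower in nab3-11 at 37 °C for 9 of 22 and higher for 1, with a median of -0.56; wild type had 2 lower and 1 higher of 21 and a median of -0.02. CTS1, the chitinase that parts mother and daughter, had 1599 at 25 °C and 589 at 37 °C, against 1556 and 1009 in wild type. DSE4, a daughter-specific glucanase, had 274 at 25 °C and 95.8 at 37 °C, against 264 and 362, and EGT2 675 at 25 °C and 306 at 37 °C, against 724 and 616. MCM3, a subunit of the replicative helicase transcribed at the same stage, had 73.7 at 25 °C and 27.8 at 37 °C, against 69.2 and 71.4. DSE4 and MCM3 were below their 25 °C signal in nab3-11 alone. PIR3, already given, was the higher gene of this list. G1 and S regulators had 4 higher and 2 lower of 19. FAR1, the inhibitor of G1 cyclin kinase in mating, had 159 at 25 °C and 23.98 at 37 °C, against 153 and 65.3 in wild type, and CLN1, a G1 cyclin, was at least 2.16-fold lower. CDC28, the cyclin-dependent kinase, and its partner CKS1 were 2.68-fold and 2.52-fold higher, and YOX1, a repressor of M/G1 genes, was 2.38-fold higher. Of 21 genes of G2 and mitosis 1 was higher and 0 lower, with a median of -0.10 that turned positive with scaling to the hybridisation controls; CLB2, the mitotic cyclin, had 40.4 at 25 °C and 23.4 at 37 °C. Replication genes had 2 higher and 1 lower of 39. One of these was RNR3, a ribonucleotide reductase subunit induced by DNA damage, at least 4.78-fold higher by a probe set shared with other sequences.

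Genes that mark the α mating type were lower for 4 of 5 in both strains. MF(ALPHA)2, a pheromone gene, had 2192 at 25 °C and 70.4 at 37 °C, against 2438 and 46.3 in wild type. STE3, the receptor for a-factor, had 543 at 25 °C and 123 at 37 °C, against 473 and 129.6, and SAG1, the agglutinin, 1505 at 25 °C and 314 at 37 °C, against 1316 and 62.6. Pheromone response genes had 4 higher and 2 lower of 24, and 1 and 4 with a common median. FUS3, the kinase of the pathway, was 2.10-fold higher and SST2, which ends the signal, 3.07-fold lower. Of 57 meiosis and sporulation genes on the array 10 were measured, so most were below the floor at both temperatures. Of these 10, 4 were higher (2 with a common median), among them REC104, which acts in meiotic recombination, with 10.7 at 25 °C and 120.1 at 37 °C, against 7.59 and 13.4 in wild type. REC104, SPS100 and GMC1 were below the floor at 25 °C and counted as measured only through their 37 °C signal. Their differences could therefore only be positive, and the share of higher genes says little about the list. UME6, a repressor of meiotic genes in growing cells, had 35.6 at 25 °C and 71.3 at 37 °C.

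The machinery of nuclear RNA metabolism was mostly within 2-fold. Splicing factor genes were higher for 3 of 37 and lower for 0, and cleavage and polyadenylation genes for 1 and 1 of 22. RAT1, the nuclear 5′ to 3′ exonuclease that also helps to end transcription, was at least 2.14-fold lower, with 46.7 at 25 °C and 13.9 at 37 °C, against 31.1 and 42.8 in wild type. TFIID and SAGA genes had 2 higher and 1 lower of 24. The lower gene was TAF10, a subunit shared by both complexes, with 111 at 25 °C and 35.8 at 37 °C, against 123 and 148 in wild type. SGF11 and TAF9 were 2.18-fold and 2.01-fold higher. Cytoplasmic decay genes had 2 higher of 31, DCS1 and DCS2, which act on the cap left after decay, at 2.08-fold and at least 3.997-fold higher. The vacuolar ATPase had 3 of 16 lower (6 with a common median) and 0 higher, with a median of -0.53 against -0.02 in wild type. These were VMA8 with 113 at 25 °C and 35.97 at 37 °C (92.7 and 123 in wild type), VMA5 with 587 at 25 °C and 194 at 37 °C and VMA7 with 544 at 25 °C and 227 at 37 °C (531 and 547 in wild type).

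**Figure D4:**
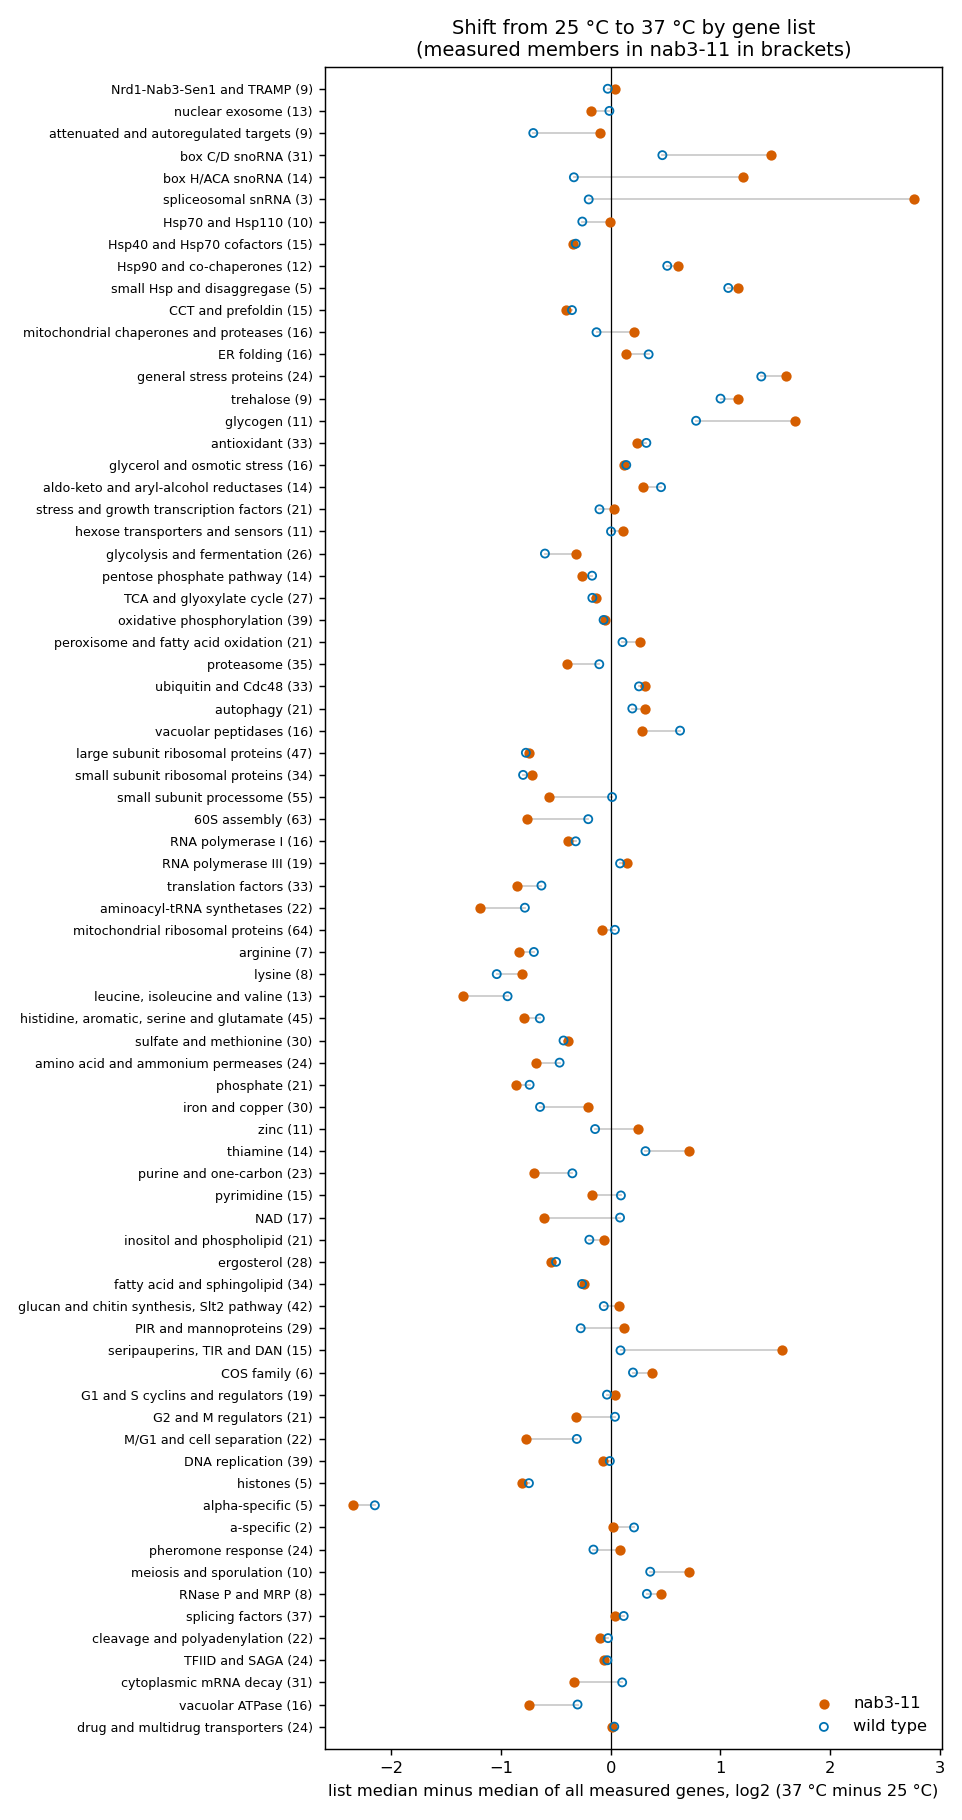
Median log2 difference between 37 °C and 25 °C of each of 75 gene lists, minus the median of all measured genes of the same strain (0.21 in nab3-11, 0.29 in wild type), in nab3-11 (filled) and wild type (open), 1 array a group. Lists of short RNAs and of the seripauperin family lie further right in nab3-11, those of ribosome assembly, tRNA synthetases, the vacuolar ATPase and M/G1 genes further left, and the general stress, Hsp90 and trehalose lists close together.

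Across the whole shift the strains shared part of their calls. Among the 4469 genes measured in both, 321 were higher in both, which is 46.1% of the 696 higher in nab3-11 and 63.4% of the 506 higher in wild type. Lower in both were 37, which is 19.7% of the 188 lower in nab3-11 and 55.2% of the 67 lower in wild type. For 375 genes higher and 149 genes lower in nab3-11 the wild type difference was under 2-fold. Of the 20 genes with the highest differences in nab3-11, 12 were also higher in wild type, 6 were snoRNA genes and 2 were not measured in wild type. The 20 included CPP3, with 128 at 25 °C and 1777 at 37 °C in nab3-11, against 163 and 1256 in wild type, and ULI1, with 60.1 at 25 °C and 792 at 37 °C, against 18.7 and 41.1. Of the 20 lowest, 14 were also lower in wild type. VBA4, a vacuolar transporter gene, was among the others, with 215 at 25 °C and 50.8 at 37 °C in nab3-11, against 178 and 138 in wild type. Below the floor at 25 °C, SHH3 was at least 17.9-fold higher in nab3-11 and YKL183C-A at least 13.6-fold higher; the latter was below the floor on both wild type arrays, while SHH3 had 1.998 and 87.4. These overlaps compare calls of arrays that share no sample, and the difference between strains was not tested.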

How the data were processed

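Total RNA of yeast was measured on 4 Affymetrix yeast arrays, 1 per strain and temperature. The authors deposited linear intensity per probe set; the submitters' processing notes name MAS5 and GCOS 1.1.1. The deposited trimmed means lay between 150.1 and 150.2. Each array was rescaled to a 2% trimmed mean of 150 over all probe sets. Signals below 21.8, the 40th percentile of non-control signal over all arrays, were set to that value ahead of the log2 transform. Of the 9335 probe sets 60 were controls, 328 had several genes and 2443 had none in the platform annotation. All 5656 genes matched the R64 annotation, used for names and gene order only, because no source used here names the build behind the array design. Calls needed a 2-fold difference. With 1 array per group no test was run.

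Members and the 75 gene lists were chosen with earlier results of these data known. Named genes were NAB3, NRD1, IMD2, the 20 highest and 20 lowest differences with both signals above the floor, the 8 highest bounds each way and up to 6 members of each list furthest from 0. No promoter or other sequence was used here. The 9 alternatives changed the scaling, the floor, the probe sets used per gene or the threshold, and scaling to the hybridisation controls was added after seeing the data. Scripts ran in Python 3.11.15 (pandas 2.3.3, numpy 2.4.6, scipy 1.17.1), with figures by matplotlib 3.10.9.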

Additional observations from a re-analysis of the deposited data

Results flagged for a closer look

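GYP7, a gene for a GTPase-activating protein of vesicle transport, was 3.73-fold lower at 37 °C in nab3-11, with signals of 113 at 25 °C and 30.3 at 37 °C, and 3.55-fold higher in wild type, with 83.4 and 296. Its log2 difference in nab3-11 minus that in wild type was -3.72. EFM5, a lysine methyltransferase gene, had 67.7 and 27.1 in nab3-11 and 44.9 and 90.8 in wild type, a difference of -2.34 between the strains' log2 values. Among the 4469 genes measured in both strains these were the 2 that passed 2-fold in opposite directions, and with 1 array a group the difference between strains was not tested.

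The 25S rRNA control probe set, which no comparison of genes uses, was 5.15-fold higher at 37 °C in nab3-11 and 0.98-fold in wild type. Of 10 rRNA controls 3 were above the floor in nab3-11. The others of these 3 were another 25S control, with 37.96 at 25 °C and 72.9 at 37 °C, and an 18S control, with 26.3 and 32.1.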

How the results depend on the processing

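Counts of higher and lower genes, 727 and 188 in nab3-11 at 37 °C, were 444 and 434 on a common median, 438 and 402 after quantile normalization, 295 and 47 at 3-fold and 1492 and 58 with scaling to the hybridisation controls, where 96.3% of called genes were higher. All 444 higher genes under the common median were among the 727, and the 188 lower genes were among its 434. With the other 6 alternatives the higher count lay between 512 and 937 and the lower count between 126 and 213. Of 75 list medians relative to all genes, glycogen moved from 1.68 to 0.95 with the lower floor, the snRNA list from 2.76 to 2.16 with the higher floor, 1.60 with unique probe sets and 1.55 with the hybridisation controls, and the seripauperin list from 1.56 to 0.38 with unique probe sets. Of 3895 alternative values of 438 named genes 146 moved by over 1.5-fold. The value of RPL7A turned from -1.26 to 0.48 with unique probe sets, by the use of another probe set. The causes of the other changes were not tested. No paired analysis was possible because each group has 1 array. Signals near the floor limit 643 genes to a bound in nab3-11.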

Other observations

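Protein-coding genes at the ends of chromosomes were described separately. Of 151 measured genes among the outermost 10 of each of 32 chromosome arms in the R64 order, 41 were higher in nab3-11 at 37 °C (27.2%) and 4 lower, against 634 of 4351 other protein-coding genes (14.6%). Without the PAU, TIR, DAN and COS families it was 33 of 138 (23.9%), and over genes with plain probe sets 26 of 124 (21.0%). In wild type 19 of 139 such genes were higher (13.7%). These shares overlap with the seripauperin list given in the report.

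Reading frames added late to the annotation, whose systematic names carry a suffix letter, were higher for 43 of 145 measured in nab3-11 and lower for 0. That is 29.7% higher, against 15.7% of all measured genes. In wild type 32 of 137 were higher (23.4%, against 11.1% of all measured genes) and 1 was lower. Among protein-coding neighbours in tandem, the gene downstream of a higher gene was itself higher in 34 of 217, against 232 of 1541 over all. Next to a higher gene, 46 of 253 divergent and 38 of 268 convergent neighbours were higher, against 253 of 1716 and 268 of 1812 over all. Divergent and convergent pairs were counted from each side, so each pair enters these totals in both orders, unlike tandem pairs. By mean signal, the highest quartile of genes had 9.76% higher and 6.91% lower with a median of -0.08, and the lowest quartile 139 and 21 of 1158 genes with a median of 0.29.

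Drug transporter genes, which export toxic compounds, were higher for 6 of 24 and lower for 2 in nab3-11. PDR10 had 87.8 at 25 °C and 378 at 37 °C, against 93.1 and 179 in wild type. ATR1 and QDR2 were the lower genes, with 152 and 45.8 for ATR1 and 107 and 28.7 for QDR2.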
